A study of Mus musculus with 12 samples.

Results

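The interferon-stimulated genes of the mouse liver after doxorubicin were examined as 1 group. They were the genes of the deposited expression table whose symbols belong to families named for interferon induction or carry well known interferon-induced names, and 68 of 3799 genes in the table matched. The 60 genes of the known families included the Ifit, Oas, Ifi200, Mx, Gbp and Irg genes, *Isg15*, *Stat2* and *Irf7*. The other 8 matched by name only, namely *Trim7*, *Trim11*, *Trim13*, *Trim24*, *Trim47*, *Trim65*, *Trim68* and *Irf2bpl*, and were kept apart in the descriptions. The rule used symbols, but the genes it acts on had been selected on measured values. The authors had reduced the table to genes that differed between groups of these same libraries, and the group of interferon-stimulated genes was chosen by differences already seen between DOX + K35 and DOX + K27. The contrasts therefore describe these 12 livers and give no independent evidence for the group, and their p-values come from fits over all genes of the table and are given as a description. A mean of at least 1 FPKM over all libraries, the filter for the fits, was reached by 64 of the 68 genes. *Oas3*, *Oas1c*, *Ifi208* and *Trim30b* were below it and were not tested.

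Livers of male C57BL/6J mice were sequenced after poly-T selection of RNA, with 3 libraries in each of 4 groups. Mice entered the experiment at 8 weeks of age. The Saline group, called vehicle in the sample labels, was injected with saline, and the other groups with doxorubicin (DOX), a DNA-damaging chemotherapy drug used in the study to accelerate ageing, at 10 mg/kg on days 0 and 7. From day 2 the DOX group was given vehicle by gavage, the DOX + K35 group 50 mg/kg of the compound K35 and the DOX + K27 group 50 mg/kg of the compound K27, every 2 days, and livers were collected on day 20. The study took K35 and its analog K27 from agents directed at PKM2, a glycolytic enzyme, for their action on its aggregates, and they are called here by their code names. Both compound groups had received doxorubicin, and no group had received a compound without it, so a compound was only seen on top of doxorubicin.

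Interferons are secreted when cells sense viral or misplaced nucleic acid. Type I interferons act through a receptor that activates a complex of STAT proteins and IRF9, which binds the interferon-stimulated response element (ISRE) in promoters. Interferon gamma acts through STAT dimers, which bind the gamma-activated sequence (GAS) and turn on guanylate-binding proteins and immunity-related GTPases most of all. In liver, hepatocytes and Kupffer cells, the resident macrophages, both respond, and the products degrade foreign RNA, block translation, attack pathogen vacuoles and modify proteins with ISG15. In whole liver, fewer cells of a type and less RNA per cell cannot be told apart.

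Values are FPKM, fragment numbers divided by transcript length and by library size, a unit the table's header does not name, and are given in the order A1, A2 and A3 for Saline, B1, B3 and B4 for DOX, C1, C2 and C4 for DOX + K35 and D1, D2 and D3 for DOX + K27. The labels list other codes for some DOX and DOX + K35 livers, so B3, B4 and C4 were used as members of their group without a replicate number. Depth is unknown, since the table holds no counts. The hepatocyte genes *Apoa1* and *Cps1*, 2 of 6 hepatocyte markers found in the table, were high in all libraries, with sums of 5043 to 10350 FPKM. Between the compounds the 2 genes went opposite ways. *Apoa1* was at 6007, 5597 and 4464 FPKM with K35 and 7447, 8467 and 10156 with K27. *Cps1* was at 737.8, 622.4 and 579.0 FPKM with K35 and 341.1, 320.5 and 193.5 with K27. Among Saline livers, A3 was highest for 57 of the 68 interferon-stimulated genes and for 38.5% of all genes. In DOX + K35, C4 was lowest for 57 of 68 and for 39.6% of all genes. D3 was lowest in DOX + K27 for 57 of 68, against 46.7% of all genes. B4 was lowest in DOX for 58 of 68, but it was also lowest for 82.2% of all genes. For part of the genes and families, the value without 1 of these livers is also given.

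RefSeq promoter windows on GRCm38.p6, reaching from 250 bases before to 50 bases after the transcription start, were at hand for 46 of the 68 genes. The sequences do not depend on the measured values. The rule took families named for interferon induction, however, so the share with an ISRE describes the group and is no separate evidence for it. The core of the ISRE, searched as GAAA, any 2 bases and GAAA again (on the other strand TTTC, any 2 bases and TTTC), was found in 26 of the 46 (56.5%), against 3.99% of all 27025 genes with a window and 4.31% of the 2759 genes of the table with one. It was found in 26 of 40 genes (65.0%) of the known families and in 0 of 6 genes matched by name only. The GAS letters TTCNNNGAA, which read the same on both strands, were found in 8 of 46 (17.4%), against 9.55% of all genes. Both motifs were searched on both strands, and a gene with several matches, overlapping ones included, was counted once. Copies with the same stretch, such as *Ifit3* and *Ifit3b*, were counted as separate genes. A match describes the letters of a window and does not show a bound site.

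The stretches below are from genes described in the results, chosen to cover the main families with a match, and are printed in the direction of transcription with every base of an ISRE core in capitals. They show the tandem cores of *Isg15*, the paired cores of the Ifit genes and the cores next to the start of *Oas1g* and *Igtp*.
Isg15 (chr4:156200855-156200916, minus strand): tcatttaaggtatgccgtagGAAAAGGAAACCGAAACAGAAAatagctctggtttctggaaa
Ifit1 (chr19:34640765-34640833, plus strand): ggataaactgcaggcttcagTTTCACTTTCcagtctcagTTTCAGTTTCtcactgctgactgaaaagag
Ifit3 (chr19:34583353-34583436, plus strand): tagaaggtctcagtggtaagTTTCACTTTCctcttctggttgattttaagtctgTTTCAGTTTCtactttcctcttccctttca
Oas1g (chr5:120887614-120887651, minus strand): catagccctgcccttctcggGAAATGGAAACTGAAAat
Ifi213 (chr1:173599316-173599365, minus strand): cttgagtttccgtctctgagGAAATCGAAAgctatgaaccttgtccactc
Trim30a (chr7:104465200-104465249, minus strand): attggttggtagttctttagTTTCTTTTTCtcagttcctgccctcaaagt
Igtp (chr11:58199502-58199551, plus strand): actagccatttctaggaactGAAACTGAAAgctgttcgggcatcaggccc
Stat2 (chr10:128270256-128270305, plus strand): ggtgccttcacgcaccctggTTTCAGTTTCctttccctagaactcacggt

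The *Isg15* stretch holds 3 cores that overlap end to end. The *Ifit3* stretch was identical to that of *Ifit3b* over 84 bases, the *Ifi213* stretch to that of *Ifi208* over 50 bases and the *Trim30a* stretch to that of *Trim30d* over 50 bases. The *Igtp* stretch differed from that of its neighbour *Irgm2* at 2 of 50 bases. The middle of the core lay within 100 bases of the transcription start in 20 of the 26 genes, with a median of -53.5 bases. In *Trim12a* and *Trim34a* it lay 15 bases after the start.

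Many of the genes lie in clusters of copies (positions from GENCODE M21 on GRCm38). The 4 Ifit genes span chr19:34550694-34650009, the Oas genes other than *Oasl2* chr5:120730333-120907521, the Ifi200 genes chr1:173566283-173942672, and *Trim34a* to *Trim30d* chr7:104244457-104507849. *Mx1* and *Mx2* are neighbours on chromosome 16, as are the 3 Ifi27 genes on chromosome 12. *Isg15* and *Irf7* stand apart from these clusters.

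The heat map of 67 genes shows 1 block of high values and 1 column of low ones. On the log2(FPKM + 1) scale, with the mean of each gene over the 12 libraries subtracted, the median of the 64 tested genes was 0.82 in D1, 1.03 in D2 and 0.20 in D3, and -0.98 in C4. It ran from -0.46 to -0.04 in the 3 DOX libraries, and was -0.13 in C1, -0.19 in C2, -0.40 in A1, -0.24 in A2 and 0.40 in A3. DOX + K27 was therefore the only group whose 3 medians were all above 0, though A3 stood above D3.

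**Figure D1:**
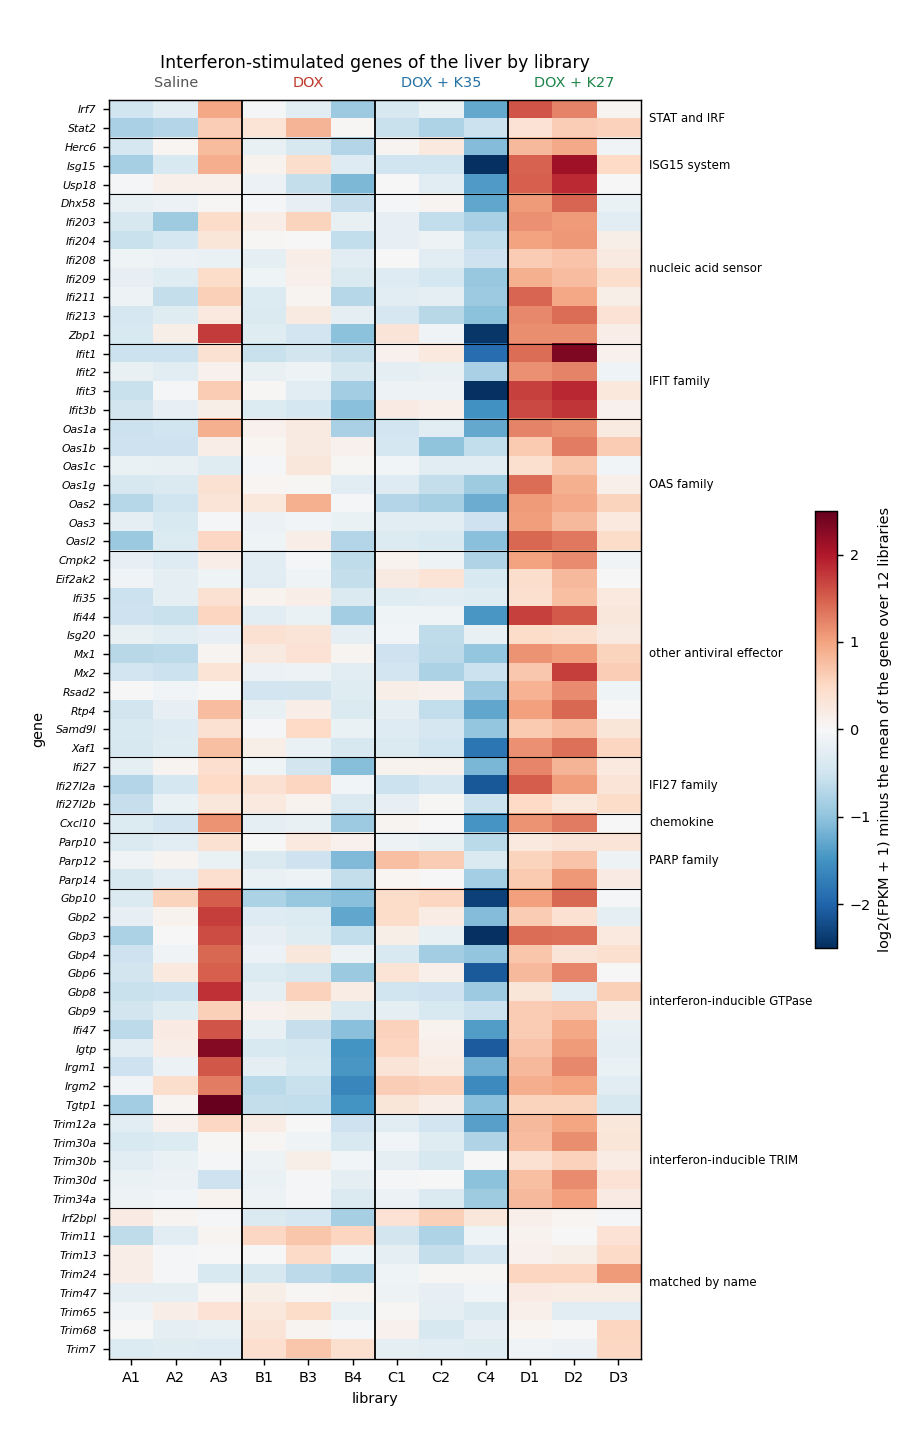
Heat map of 67 of the 68 interferon-stimulated genes (rows, by role) in 12 libraries (columns, by group). Colour is log2(FPKM + 1) minus the mean of the gene over the 12 libraries, red above and blue below. D1 and D2 are red in nearly every family, C4 is blue, and A3 is darkest red in the GTPases.

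The families did not move together in every library, as the plot of family medians shows. In D1 and D2 the Ifit genes stood highest of the families plotted, at 1.53 and 1.84, with the Oas genes at 1.25 and 1.17 and the GTPases at 0.70 and 0.98. In A3 the order was different, with the GTPases at 1.56, the Oas genes at 0.38 and the Ifit genes at 0.27. The 8 genes matched by name only stayed between -0.26 and 0.42 in all 12 libraries.

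**Figure D2:**
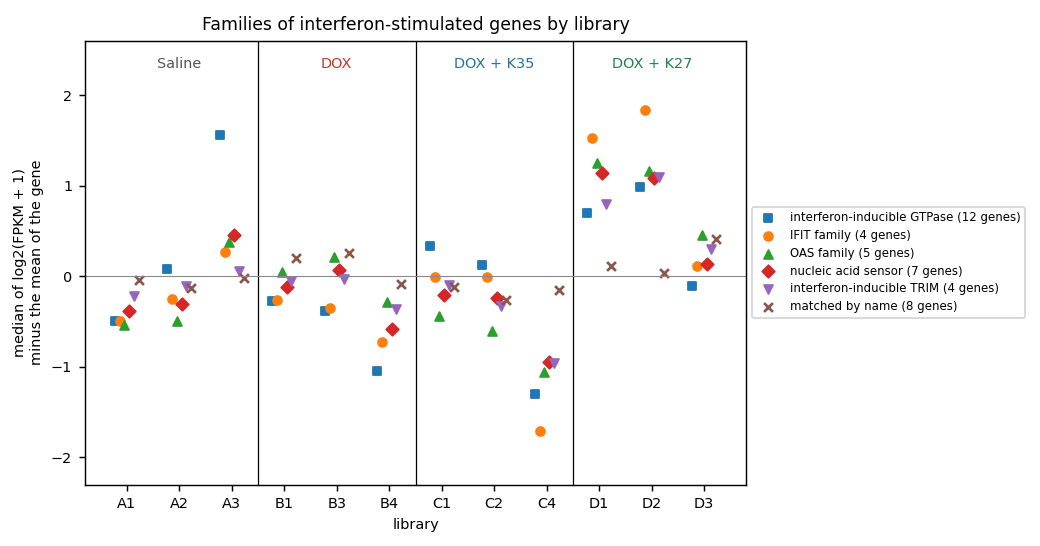
Median of 6 families in each library, on the log2(FPKM + 1) scale minus the mean of the gene; each symbol is 1 family and each column 1 library. The Ifit, Oas, sensor and TRIM genes peak in D1 and D2, the GTPases peak in A3, all 5 known families are lowest in C4, and the genes matched by name stay near 0.

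The widest contrast was between the compounds, which were given at the same dose and on the same days and so could be compared directly. Of the 64 genes, 63 had a lower value with K35 than with K27, by a median of -1.14 on the log2(FPKM + 1) scale, while the median of all 3317 genes tested was 0.09. In this comparison 14 genes passed the threshold, an adjusted p under 0.05 in limma with p-values adjusted over the whole table, all lower with K35, which is 21.9% of the 64, against 2.11% of all genes tested in either direction and 1.69% lower. Groups that did not overlap, with each K35 library below each K27 library, were seen for 40 of 64 (62.5%), against 18.9% of all genes, and an unadjusted p under 0.05 for 47 (73.4%), against 28.4%. The group was chosen with this contrast seen, so these counts describe it and nothing is read from them. Each comparison was adjusted on its own, and no adjustment was made across comparisons or for the choice of this one.

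The difference was smaller without C4, the lowest K35 liver. Without it, the median over the 64 genes was -0.78, against 0.10 for all genes, and 12 of the 14 genes kept their call, against 5.55% of all genes called in that fit. *Ifi27l2a* and *Trim12a* lost it (adjusted p = 0.0527 and 0.0605). With the replicate number as a block, which uses the 9 numbered libraries and so also leaves out C4, 16 genes passed, 10 of them among the 14, with a median of -0.83, but 43.7% of all genes passed in that fit. The other 6 were *Usp18*, *Isg20*, *Samd9l*, *Trim11*, *Trim13* and *Trim30d* (adjusted p = 0.0146 to 0.0483). *Isg15*, *Ifi27l2a*, *Oasl2* and *Oas1g* were the 4 that did not pass with the block. The count fell to 6 without C2 (0.724% of all genes called), 5 without D1 (0.844%) and 4 without D2 (0.482%), and was 29 without D3 (1.57%). D3 was the lowest K27 liver for 57 of the 68 genes, so leaving it out raises the K27 mean of most of them. Nothing is read from calls gained without D3, here or in the families below. Of the 14 genes, 8 lost their call without C2 (adjusted p = 0.0573 to 0.0812), 9 without D1 (0.066 to 0.122) and 10 without D2 (0.0614 to 0.13). *Isg15*, *Ifi27l2a* and *Trim12a* were the 3 that also lost it without A2 or without B3 (0.0504 to 0.0631), and *Ifi27l2a* and *Oasl2* lost it without C1 (0.057 to 0.0604). *Mx1*, *Oas2*, *Oas1b* and *Ifi213* passed in all 12 fits that left out 1 library.

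**Figure D3:**
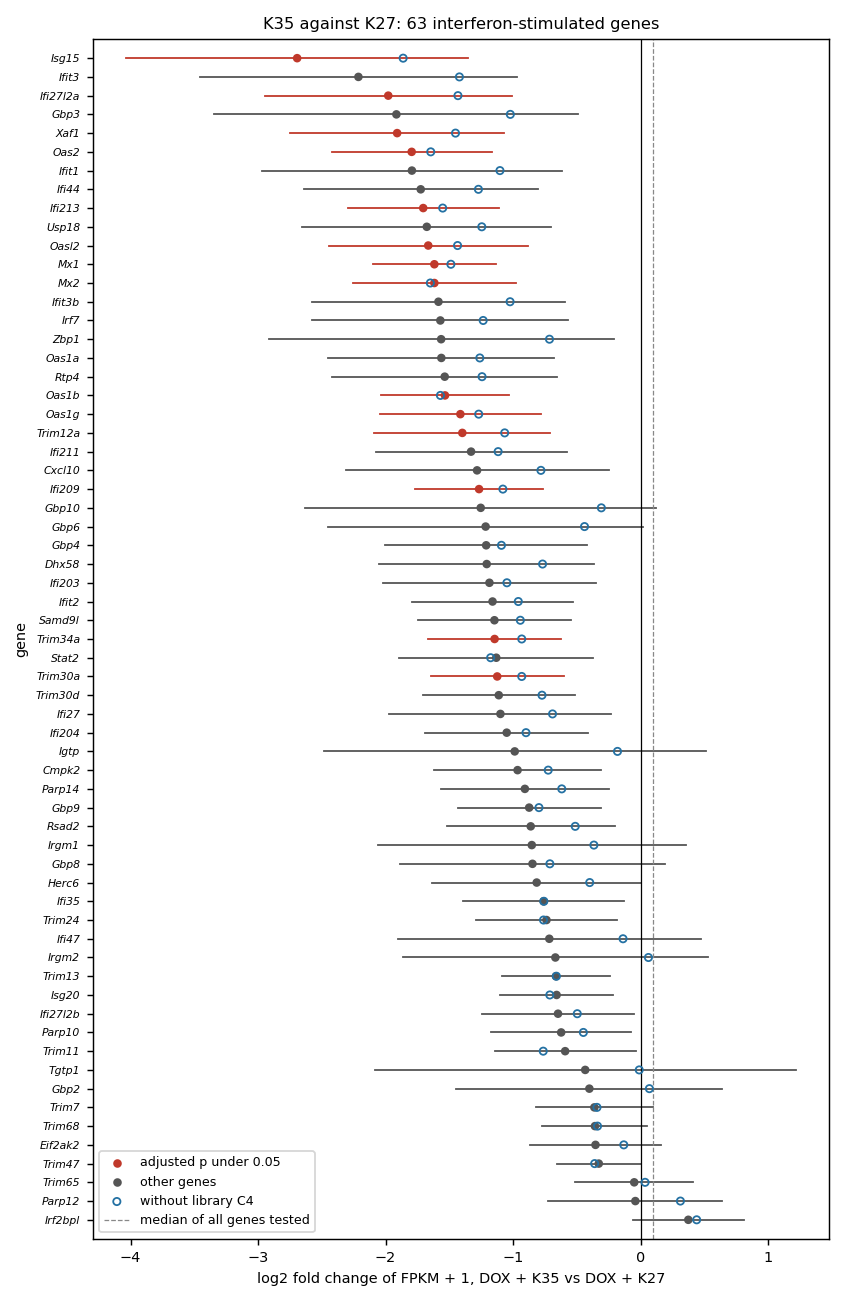
Log2 fold change of FPKM + 1 of DOX + K35 against DOX + K27 for 63 of the 64 genes tested (rows), with filled points for the fit over 12 libraries, bars for its 95% interval, open circles for the fit without C4 and a dashed line for the median of all genes tested. The 14 genes in red pass an adjusted p of 0.05 and all lie left of 0, and the filled point of *Irf2bpl* alone lies right of it.

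The signalling genes described are *Irf7* and *Stat2*. *Irf7*, the transcription factor that drives production of type I interferon, was at 17.6, 20.98 and 50.7 FPKM in Saline, 24.6, 20.8 and 13.04 in DOX, 19.00, 22.5 and 9.77 in DOX + K35 and 77.01, 60.8 and 26.5 in DOX + K27. Every K27 library was above every K35 library, though D3 exceeded C2 by little. The difference of K35 from K27 was -1.57 ± 0.47 (SE) with a 95% interval of -2.57 to -0.57 (adjusted p = 0.0826). It was -1.23 without C4 and -2.02 without D3 (adjusted p = 0.113 and 0.0545).

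*Stat2*, a signal transducer of type I interferon, followed another pattern, at 10.1, 10.7 and 28.5 FPKM in Saline, 23.4, 33.8 and 18.7 in DOX, 12.1, 10.4 and 12.4 in DOX + K35 and 23.7, 28.6 and 27.7 in DOX + K27. Here the K35 livers were low together, C4 included, and no K35 value reached the lowest DOX or K27 value. The change of K35 from DOX was -1.02 ± 0.36 (SE) (adjusted p = 0.024), while K27 differed from DOX by 0.11 with an interval of -0.65 to 0.87. The call against DOX was lost without B3 (adjusted p = 0.113), C1 (0.0545) or C2 (0.0767). Against K27 the difference was -1.13 with an adjusted p of 0.094.

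The ISG15 system held the largest difference between the compounds. *Isg15*, a ubiquitin-like protein that is coupled to newly made proteins, was at 9.36, 13.1 and 33.5 FPKM in Saline, 18.6, 24.01 and 13.7 in DOX, 11.96, 12.1 and 1.31 in DOX + K35 and 50.3, 79.4 and 24.8 in DOX + K27. Its mean was 8.46 ± 6.19 FPKM with K35 and 51.5 ± 27.3 with K27 (SD, n = 3 each), and the groups did not overlap. The log2 change of K35 against K27 was -2.69 ± 0.63 (SE) (adjusted p = 0.0389), and it was -1.86 (adjusted p = 0.049) without C4, the library at 1.31 FPKM. With the replicate block it was -1.83 (adjusted p = 0.0693), and without D2 the adjusted p was 0.13.

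*Usp18*, the protease that removes ISG15 and damps the type I receptor, was at 10.02, 11.4 and 11.4 FPKM in Saline, 9.26, 6.52 and 4.24 in DOX, 10.4, 8.54 and 3.25 in DOX + K35 and 31.2, 40.5 and 10.2 in DOX + K27. D1 and D2 were well above all other libraries, while D3 lay within the K35 range. The difference of -1.68 (interval -2.65 to -0.70) had an adjusted p of 0.0683, and passed with the replicate block at -1.51 (adjusted p = 0.0403). It also passed without D3, at -2.24 (adjusted p = 0.0164), and was -1.25 without C4 (adjusted p = 0.0913). *Herc6*, the main ISG15 ligase of the mouse, differed by -0.81 with an adjusted p of 0.176.

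**Figure D4:**
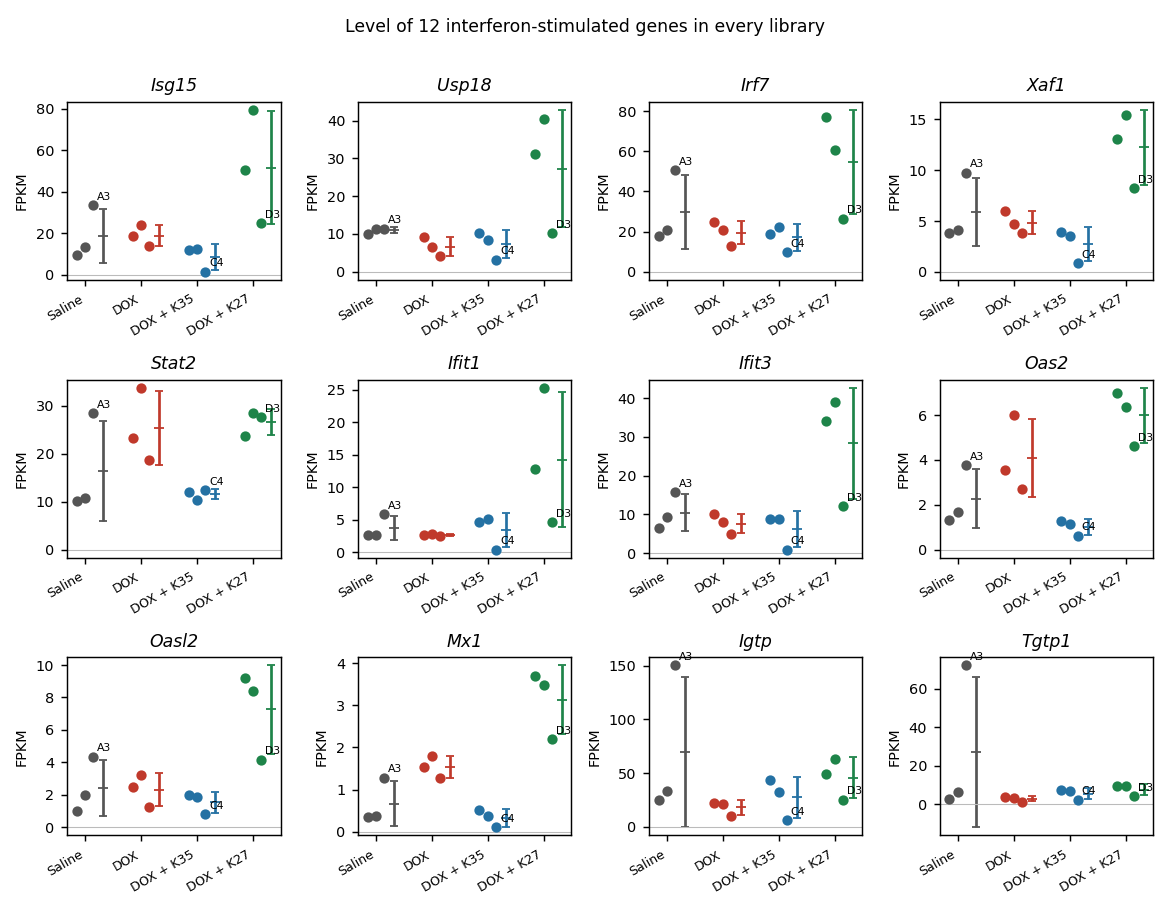
Level of 12 genes in every library in FPKM, 1 panel per gene, with points for libraries and bars for the mean ± SD of 3 libraries beside them; A3, C4 and D3 are marked. *Isg15*, *Irf7*, *Oas2*, *Oasl2* and *Mx1* have every K27 point above every K35 point, while in *Igtp* and *Tgtp1* the highest point is A3.

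Of the sensors of nucleic acid, 7 were tested and all 7 were lower with K35 than with K27, by a median of -1.27, and 2 passed. Both belong to the Ifi200 genes, a cluster on chromosome 1 whose products bind DNA. Without D3, 6 of the 7 sensors passed, against 1.57% of all genes in that fit, and without C4 2 of the 7, against 5.55%. *Ifi213* was at 0.863, 1.01 and 1.95 FPKM in Saline, 0.9398, 1.91 and 1.13 in DOX, 0.856, 0.531 and 0.227 in DOX + K35 and 4.71, 5.59 and 2.21 in DOX + K27. All K27 livers were above all others, and the K35 change was -1.70 ± 0.28 (SE) (adjusted p = 0.00712), or -1.55 without C4. *Ifi209* was at 0.994, 0.871 and 2.17 FPKM in Saline, 1.12, 1.49 and 0.781 in DOX, 0.826, 0.697 and 0.194 in DOX + K35 and 3.24, 2.92 and 2.100 in DOX + K27. The compound groups did not overlap, although A3 exceeded D3, and the change was -1.27 ± 0.24 (SE) (adjusted p = 0.0163). Leaving out D1 (adjusted p = 0.066) or D2 (0.0614) ended this call.

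*Zbp1*, the sensor of Z-form nucleic acid, did not pass, at 6.65, 10.1 and 32.5 FPKM in Saline, 7.02, 6.12 and 3.86 in DOX, 11.4, 8.395 and 0.847 in DOX + K35 and 21.4, 21.3 and 10.2 in DOX + K27. A3 was the highest liver and C4 the lowest, with D3 between C1 and C2. The compounds differed by -1.56 with an interval of -2.92 to -0.21 (adjusted p = 0.146), and by -0.71 without C4. The RNA helicase gene *Dhx58* and the other Ifi200 genes *Ifi203*, *Ifi204* and *Ifi211* had differences of -1.33 to -1.05. *Ifi203* and *Ifi211* overlap *Mndal* on the same strand, so their reads may be shared.

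The Ifit genes, which encode proteins that bind foreign RNA and block its translation, had the largest median difference between the compounds, -1.69. With all libraries 0 of the 4 passed (limma), and all 4 had an unadjusted p under 0.05, against 28.4% of all genes. Without D3 all 4 passed (adjusted p = 0.00404 to 0.0386) with a median of -2.25, against 1.57% of all genes in that fit. Without A3 2 passed, against 3.8%, and without B4 2 passed, against 8.5%. Without C4 the median was -1.06 with 0 called, against 5.55%. *Ifit1* was at 2.62, 2.599 and 5.81 FPKM in Saline, 2.58, 2.83 and 2.47 in DOX, 4.66, 5.17 and 0.406 in DOX + K35 and 12.8, 25.3 and 4.64 in DOX + K27. D2 was the highest liver, and D3 was below C1 and C2. Its difference of -1.79 had an interval of -2.97 to -0.61 and an adjusted p of 0.0868. *Ifit3* was at 6.38, 9.36 and 15.6 FPKM in Saline, 9.96, 7.95 and 4.94 in DOX, 8.84, 8.83 and 0.894 in DOX + K35 and 34.2, 38.9 and 12.02 in DOX + K27. Here the compound groups were apart, with D3 above C1, and the difference was -2.21 (interval -3.46 to -0.97, adjusted p = 0.0651), which became -1.42 without C4. *Ifit2*, the member with the lowest adjusted p, differed by -1.16 (adjusted p = 0.06). *Ifit3* and *Ifit3b* are near-identical copies, so the split of reads between them is uncertain.

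The Oas genes include ones whose products make the second messenger that activates RNase L, an enzyme that cuts RNA. All 5 tested were lower with K35 than with K27, and 4 passed, the largest share of any family with over 4 genes. *Oas2* was at 1.32, 1.69 and 3.76 FPKM in Saline, 3.56, 6.02 and 2.69 in DOX, 1.28, 1.14 and 0.619 in DOX + K35 and 6.98, 6.37 and 4.62 in DOX + K27. The K35 livers were the lowest 3 of all 12, so that they were apart from DOX and Saline as well as from K27. The change of K35 was -1.80 ± 0.29 (SE) against K27 (adjusted p = 0.00712) and -1.30 ± 0.29 (SE) against DOX (adjusted p = 0.00567). Both calls held in all 12 fits without 1 library.

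*Oas1b*, another gene of the cluster, was at 0.865, 0.873 and 1.98 FPKM in Saline, 1.76, 2.095 and 1.87 in DOX, 0.966, 0.332 and 0.744 in DOX + K35 and 3.17, 5.44 and 3.13 in DOX + K27. K35 livers were below each DOX and each K27 liver, and the change against K27 was -1.53 ± 0.24 (SE) (adjusted p = 0.00645). C4 was not the lowest library here, and without it the change was -1.57. *Oasl2*, an Oas-like gene, was at 0.989, 1.98 and 4.36 FPKM in Saline, 2.49, 3.23 and 1.27 in DOX, 1.98, 1.87 and 0.814 in DOX + K35 and 9.22, 8.39 and 4.16 in DOX + K27. Its compound groups did not overlap, but D3 was below A3. The change of -1.67 ± 0.37 (SE) (adjusted p = 0.0305) became -1.40 with the block (adjusted p = 0.0681).

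*Oas1g* was at 0.923, 0.9597 and 2.29 FPKM in Saline, 1.61, 1.59 and 1.07 in DOX, 1.02, 0.6704 and 0.362 in DOX + K35 and 5.71, 3.69 and 1.76 in DOX + K27. D3 was above every K35 liver and below A3, and the change was -1.41 ± 0.30 (SE) (adjusted p = 0.0282; 0.0543 with the block). *Oas1a*, whose sequence is close to that of *Oas1g* and may share reads, differed by -1.56 (adjusted p = 0.0657). Over 12 fits without 1 library the adjusted p ran from 0.0127 to 0.115 for *Oasl2* and from 0.00857 to 0.108 for *Oas1g*.

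Of the other antiviral effectors 11 were tested, all 11 with a lower value in K35 than in K27, and 3 passed. Without D3, 7 of the 11 passed, against 1.57% of all genes in that fit, and without C4 3 of the 11, against 5.55%. *Mx1*, a gene of the dynamin-like GTPases, was at 0.349, 0.373 and 1.28 FPKM in Saline, 1.54, 1.79 and 1.29 in DOX, 0.523, 0.383 and 0.108 in DOX + K35 and 3.701, 3.49 and 2.196 in DOX + K27. It ordered the groups without overlap between the compounds, and each DOX liver was above each Saline liver as well, B4 barely above A3. The change of K35 was -1.62 ± 0.23 (SE) against K27 (adjusted p = 0.00544), the lowest adjusted p of the 64 genes, and -0.93 ± 0.23 (SE) against DOX (adjusted p = 0.0059).

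*Mx2*, its relative, was at 2.38, 2.24 and 4.91 FPKM in Saline, 3.22, 3.31 and 2.89 in DOX, 2.35, 1.69 and 2.21 in DOX + K35 and 6.52, 14.6 and 6.13 in DOX + K27. D2 stood far above D1 and D3, which were still above all other livers, and the change was -1.62 ± 0.30 (SE) (adjusted p = 0.0163). It lost its call without C2 (adjusted p = 0.0643) or D2 (0.0614). *Xaf1*, a gene of interferon-linked cell death, was at 3.83, 4.14 and 9.77 FPKM in Saline, 6.02, 4.66 and 3.798 in DOX, 3.95, 3.48 and 0.818 in DOX + K35 and 13.1, 15.4 and 8.23 in DOX + K27. A3 exceeded D3, the compound groups did not overlap, and the change was -1.91 ± 0.39 (SE) (adjusted p = 0.0271) with all libraries and -1.45 without C4. It was not called without D1 (0.0924) or D2 (0.107).

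*Rsad2*, which encodes viperin and makes a chain-terminating nucleotide, was at 1.24, 1.16 and 1.29 FPKM in Saline, 0.632, 0.648 and 0.824 in DOX, 1.52, 1.45 and 0.204 in DOX + K35 and 3.12, 4.14 and 1.11 in DOX + K27. D3 lay below C1 and C2, and the difference of -0.86 had an interval of -1.52 to -0.20 (adjusted p = 0.118). It passed without D3, at -1.24 (adjusted p = 0.0386), and was -0.51 without C4 (adjusted p = 0.193). Its DOX livers were the lowest apart from C4. The remaining effectors, among them the exonuclease gene *Isg20*, the kinase gene *Eif2ak2* (PKR), *Ifi44*, *Rtp4* and *Samd9l*, differed by -1.72 to -0.35, none past the threshold, and *Samd9l* was nearest to it (adjusted p = 0.0509). With the replicate block *Samd9l* (adjusted p = 0.0483) and *Isg20* (0.0208) passed. The weakest was *Eif2ak2*, at -0.35 (interval -0.87 to 0.16).

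*Ifi27l2a*, a small membrane protein gene, was at 5.75, 7.22 and 14.8 FPKM in Saline, 13.6, 15.2 and 9.69 in DOX, 6.69, 7.37 and 1.58 in DOX + K35 and 30.9, 21.96 and 12.9 in DOX + K27. Each K35 liver was below each DOX and K27 liver, and C4 was lowest of all. The change was -1.98 ± 0.45 (SE) against K27 (adjusted p = 0.0376) and -1.31 ± 0.45 (SE) against DOX (adjusted p = 0.0231). Without C4 both were lost, at -1.43 (adjusted p = 0.0527) and -0.76 (adjusted p = 0.109), and with the block the first was -1.41 (adjusted p = 0.0659). The call against DOX was also lost without B1 (0.0501) or B3 (0.0773). *Ifi27* was the most abundant of the 68 genes, at 52.05, 63.2 and 80.96 FPKM in Saline, 56.2, 43.9 and 28.5 in DOX, 64.5, 64.4 and 26.98 in DOX + K35 and 143.5, 110.7 and 71.98 in DOX + K27.

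*Cxcl10*, a chemokine that attracts activated T cells, was at 3.47, 3.05 and 11.3 FPKM in Saline, 3.75, 3.96 and 2.02 in DOX, 4.89, 4.65 and 1.04 in DOX + K35 and 11.3, 12.8 and 4.71 in DOX + K27. A3 equalled D1, and D3 lay between C1 and C2. The compounds differed by -1.28 with an interval of -2.31 to -0.25 (adjusted p = 0.129). Of the Parp genes, which attach ADP-ribose, *Parp12* was the one with no visible difference between the compounds, at -0.04 with an interval of -0.72 to 0.64. Its values were 10.7, 9.81 and 4.39 with K35 and 9.26, 10.4 and 5.34 with K27, against 4.39, 3.87 and 2.25 in DOX.

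The interferon-inducible GTPases coat and break pathogen vacuoles. All 12 had a lower value with K35 than with K27, by a median of -0.86, but 0 passed (limma). An unadjusted p under 0.05 was found for 3 of the 12, *Gbp3*, *Gbp4* and *Gbp9*, where 28.4% of all genes had one. *Gbp3* had the largest difference, at 4.09, 7.88 and 26.1 FPKM in Saline, 6.65, 6.17 and 4.73 in DOX, 8.71, 6.76 and 0.354 in DOX + K35 and 22.2, 21.8 and 9.37 in DOX + K27. A3 was the highest liver, C4 was far below all others, and the difference was -1.92 (interval -3.34 to -0.49, adjusted p = 0.112), or -1.02 without C4. Without C4 the median of the 12 GTPases was -0.34 with 10 of 12 below 0. Without A3 2 of the 12 passed, against 3.8% of all genes in that fit. *Igtp* was at 24.6, 33.6 and 150.4 FPKM in Saline, 22.5, 21.5 and 9.97 in DOX, 43.4, 32.5 and 6.22 in DOX + K35 and 49.5, 62.8 and 25.02 in DOX + K27. A3 was far above any other liver, and the K35 values of C1 and C2 lay within the K27 range. The difference between the compounds was -0.99 (interval -2.49 to 0.51) with C4 and -0.18 without it. *Tgtp1* was at 2.84, 6.39 and 72.2 FPKM in Saline, 3.62, 3.56 and 1.48 in DOX, 7.65, 6.85 and 2.42 in DOX + K35 and 9.31, 9.38 and 4.34 in DOX + K27. A3 again stood alone, and the compound groups overlapped, with a difference of -0.43 (interval -2.09 to 1.22), or -0.01 without C4. *Gbp4*, *Gbp8* and *Gbp9* overlap one another on the same strand, as do *Igtp* and *Irgm2*, so their values may share reads. These GTPases, *Ifit2*, *Ifi27*, *Parp12* and *Irf2bpl* were named after their values were seen.

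The interferon-inducible TRIM genes, ubiquitin ligases in a cluster on chromosome 7, had a narrow range of differences. All 4 tested had lower values with K35, by -1.40 to -1.11, and 3 passed. *Trim30d*, the other one, passed with the replicate block (adjusted p = 0.0146) and without D3 (0.0454). *Trim12a* was at 5.01, 6.86 and 9.37 FPKM in Saline, 7.26, 6.21 and 4.098 in DOX, 5.09, 4.22 and 1.82 in DOX + K35 and 11.8, 13.4 and 7.87 in DOX + K27. K27 livers were above K35 livers with D3 below A3, and the change was -1.40 ± 0.32 (SE) (adjusted p = 0.0389). *Trim30a*, which restrains signalling of NF-kappa-B, was at 1.399, 1.47 and 2.18 FPKM in Saline, 2.18, 1.89 and 1.41 in DOX, 1.98, 1.54 and 0.845 in DOX + K35 and 4.35, 6.01 and 2.86 in DOX + K27. The K27 livers were the 3 highest of the 12, and the change was -1.12 ± 0.24 (SE) (adjusted p = 0.0299). *Trim34a* was at 2.51, 2.63 and 3.04 FPKM in Saline, 2.48, 2.74 and 1.98 in DOX, 2.47, 1.98 and 1.07 in DOX + K35 and 5.74, 6.81 and 3.395 in DOX + K27. It had the same order, with a change of -1.14 ± 0.24 (SE) (adjusted p = 0.0286). *Trim30a* and *Trim34a* were not called without C2, D1 or D2, where the adjusted p reached 0.114 and 0.111. Of the genes matched by name only, 0 of 8 passed between the compounds (limma), with a median of -0.36. An unadjusted p under 0.05 was found for 4 of the 8, against 28.4% of all genes. *Trim11* (adjusted p = 0.0337) and *Trim13* (0.0302) passed with the replicate block, where 43.7% of all genes passed. *Irf2bpl*, a nuclear protein gene that is no interferon regulatory factor, was the 1 gene of 64 with a higher value in K35 than in K27, at 5.42, 4.86 and 4.35 FPKM in Saline, 3.35, 3.17 and 2.12 in DOX, 6.19, 7.42 and 5.79 in DOX + K35 and 5.05, 4.79 and 4.38 in DOX + K27. The K35 livers were the 3 highest of the 12, and the compounds differed by 0.37 (interval -0.06 to 0.81, adjusted p = 0.211).

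Against DOX, the K27 livers had higher values for 61 of the 64 genes, and for all 56 of the known families. The median was 0.97 against 0.36 for all genes. Of the 64 genes 0 passed (limma, adjusted p under 0.05), against 0.0603% of all genes, and 39 had an unadjusted p under 0.05 (60.9%, against 29.3% of all genes). The groups did not overlap, with K27 higher, for 48 genes (75.0%), against 15.9% of all genes. The Ifit genes had the largest median, 1.73, with the ISG15 system at 1.30. For *Ifit1* the change was 1.81 ± 0.55 (SE) (adjusted p = 0.155), for *Usp18* 1.74 ± 0.46 (SE) (adjusted p = 0.155) and for *Mx2* 1.19 ± 0.30 (SE) (adjusted p = 0.155). Without B1, 26 of the 64 passed, all higher, but 33.1% of all genes passed in that fit too. With the 20 highest genes left out of the scaling, the median was 0.64 against 0.00 for all genes.

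K35 differed from DOX in another way. Without further scaling, most genes of the table were higher with K35, with a median of 0.46, and 56.8% of all genes passed, 46.0% higher and 10.7% lower. Of the interferon-stimulated genes 10 of 64 passed (15.6%), 2 higher and 8 lower, and the median was -0.23. The 8 lower genes were *Ifi27l2a*, *Oas2*, *Stat2*, *Trim11*, *Mx1*, *Oas1b*, *Trim7* and *Trim13*, at -1.31 to -0.54, and the 2 higher ones *Parp12* (1.00) and *Irf2bpl* (0.95). The share called lower, 12.5%, was near the 10.7% of all genes. The direction of all genes depended on scaling. Their median was 0.19 under median-ratio scaling and -0.13 with the 20 highest genes left out. Of the 64 genes, 2 rose and 22 fell under median-ratio scaling, while 43.9% of all genes rose and 34.2% fell. With the 20 highest genes left out 1 rose and 34 fell, while 27.5% of all genes rose and 43.5% fell. Without C4 the median was 0.00 against 0.53 for all genes, and 12 of the 64 genes passed, 5 higher and 7 lower. In that fit 63.5% of all genes passed, 46.7% higher and 16.8% lower.

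*Trim11*, a ubiquitin ligase matched by name, was at 6.69, 8.71 and 11.4 FPKM in Saline, 16.04, 18.2 and 16.2 in DOX, 7.68, 5.97 and 10.1 in DOX + K35 and 11.6, 10.96 and 14.3 in DOX + K27. DOX livers were all above Saline and K35 livers. K35 against DOX gave -1.02 ± 0.26 (SE) (adjusted p = 0.0067), and DOX against Saline 0.87 (adjusted p = 0.0612). *Isg15* did not pass in this comparison, at -1.40 (adjusted p = 0.0701), nor did any Ifit gene, whose differences ran from -0.56 to 0.21. The GTPases had positive values in 8 of 12 genes with 0 called (limma) and 0 at an unadjusted p under 0.05. Their median was 0.33, or 0.94 without C4 and 0.01 without B4. Without C4 2 of 12 passed, against 63.5% of all genes in that fit, and without A3 2 of 12, against 58.3%.

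DOX against Saline gave 0 of 64 genes past the threshold (limma), against 0.181% of all genes, and 11 genes with an unadjusted p under 0.05 (17.2%, against 47.4% of all genes). The median was -0.16, above the -0.34 of all genes, and it turned to 0.27, against 0.09, when the 20 highest genes were left out. The GTPases had a median of -0.98 with 11 of 12 below 0. Without A3 it was -0.41 with 8 of 12 below 0, and in A3 the GTPases stood a median of 1.79 above the mean of the other 2 Saline livers. Without A3, 7 genes passed (10.9%, against 35.9% of all genes), of which *Stat2*, *Trim11*, *Oas2*, *Mx1*, *Trim7* and *Oas1b* were higher with doxorubicin and *Irf2bpl* lower. For *Mx1* the difference with all libraries was 0.65 (interval 0.16 to 1.13, adjusted p = 0.0612).

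Compared with Saline, *Mx1* was higher with K27 (1.33 ± 0.23 (SE), adjusted p = 0.0289), 1 of 64 genes (1.56%), against 0.121% of all genes. The call was lost in 8 of the 12 fits without 1 library, those without A1, A2, B1, B3, B4, C2, D1 or D2, and with the replicate block (adjusted p = 0.0941). The median was 0.71 against 0.00 for all genes, 57 of 64 genes were above 0, and 34 had an unadjusted p under 0.05 (53.1%, against 5.94% of all genes). Here the families parted, with medians of 1.32 for the Ifit genes, 1.14 for the Oas genes and 0.15 for the GTPases, and 4 of the 12 GTPases were below 0. Without A3 the GTPase median was 0.74 with 0 below 0, and that of the Ifit genes 1.56. K35 against Saline gave 0 of 64 (limma), against 0.181% of all genes, and 6 with an unadjusted p under 0.05 (9.38%, against 16.6% of all genes), with a median of -0.40 against 0.13. That median was -0.16 without C4. The comparisons with a common group share its libraries and are not independent.

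**Figure D5:**
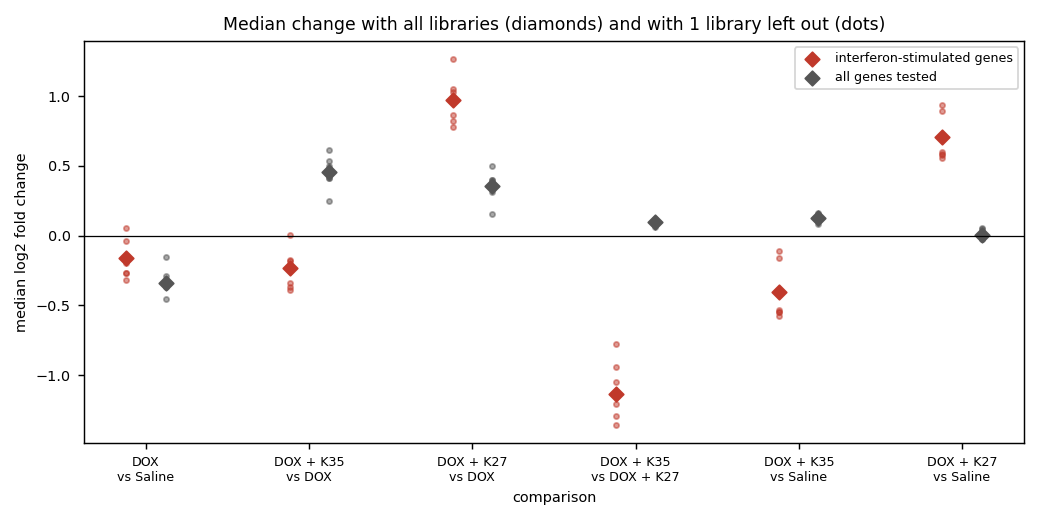
Median log2 fold change of the 64 interferon-stimulated genes (red) and of all 3317 genes tested (grey) in 6 comparisons; diamonds are fits over 12 libraries and dots fits with 1 library left out. K35 against K27 has a median of -1.14 for the group and 0.09 for all genes, and its red dots lie between -1.36 and -0.78.

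Other genes of the pathway were taken from a list by role. No interferon gene of 4 and no receptor kinase gene of 3 was in the table, and of 6 receptor chains 1 was, *Il10rb*, at -0.59 between the compounds (adjusted p = 0.127). Of 13 upstream sensors and adaptors *Tlr3* and *Myd88* were tested, with -0.50 and -0.34 and no call in any comparison. *Ptpn11*, a phosphatase counted with the inhibitors, was higher with K35 than in DOX (1.29 ± 0.26 (SE), adjusted p = 0.00499), where 46.0% of all genes were called higher. Of 38 further interferon-induced genes outside the name rule 20 were in the table and 19 tested. All 19 had lower values with K35 than with K27, by a median of -1.01, where the median of all genes was 0.09. Of the 19, 6 passed in the fit over all 12 libraries, all lower with K35, against 2.11% of all genes in either direction and 1.69% lower. These 6 were the helicase gene *Ddx60* (-1.34), *Phf11b*, *Sp100*, *Slfn8*, *Phf11d* and *Slfn5*, at -1.34 to -0.84. The list was chosen with earlier results known, and its genes come from the same selected table, so the counts give no independent evidence. *Nlrc5*, the activator of MHC class I genes, was the 1 of 19 that passed between K35 and DOX, where 56.8% of all genes passed. It had lower values under K35 (-0.93 ± 0.30 (SE), adjusted p = 0.0157).

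Marker genes of other liver cells moved with some of these livers, and their part in the results was not tested. Of 11 Kupffer cell and macrophage markers 6 were in the table, and their summed level was 201.5 FPKM in A3 and 73.4 to 80.9 in the other Saline livers. It was 18.5 to 53.0 in DOX, 53.1 to 84.3 in DOX + K35 and 53.9 to 97.02 in DOX + K27, so the compound groups overlapped, and 0 of 6 passed between them. Between K35 and DOX, 4 of the 6 were called higher with K35, where 46.0% of all genes were. The 4 globin genes, markers of red cells, summed to 62.2 FPKM in C4 and to 368.8 and 595.9 in C1 and C2. They summed to 452.1 to 1072 in DOX + K27, 820.6 to 1135 in DOX and 329.8 to 505.6 in Saline. All 4 were called lower with K35 than in DOX, where 10.7% of all genes were. *Cd79b*, the 1 lymphocyte marker of 12 in the table, was at 1.28, 1.33 and 0.252 FPKM with K35 and 2.01, 2.06 and 3.95 with K27. Of 6 endothelial and stellate markers 2 were present, *Pecam1* and *Col1a1*, with sums of 4.06 to 5.08 with K35 and 3.76 to 4.54 with K27. Markers of neutrophils and of plasmacytoid dendritic cells, 6 and 4 genes, were not analysed here because none was in the table.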

How the data were processed

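Poly(A) RNA of 12 mouse livers was sequenced. The submitters' processing notes name HISAT2, DESeq2, edgeR and GRCm38, and no versions are given in the sources used here. The authors deposited 1 table of 3799 selected genes with a length-scaled value per library, treated here as FPKM. No step that would stand for 1 read was found among low values, so depth is unknown and precision rests on the spread of replicates.

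Values were transformed as log2(FPKM + 1), which understates changes of genes with low FPKM. Genes averaging at least 1 FPKM, 3317 in all, went into limma 3.58.1 (lmFit and trended eBayes, R 4.3.3) as 4 groups of 1 factor, with all 12 libraries fitted together. Differences are given on this scale with 95% intervals, and p-values were adjusted by Benjamini-Hochberg over all genes tested within each comparison, with a threshold of 0.05. The script was tested on simulated data. Nothing was stated on whether the livers of a group were processed separately, so p-values measure the spread between these samples.

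The members and lists were chosen with earlier results of these data known. Genes named with all values were those called between the compounds, up to 4 with the largest called change and no overlap in each other comparison, and 17 fixed genes, of which 12 were in the table. Of the group, 1 gene is counted but not reported here. *Irf9*, *Irf1*, *Bst2*, *Ifih1* and *Ddx58* were not analysed here.

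The labels give the same replicate numbers to different mice. Between same-numbered Saline and DOX + K27 libraries, deviations from group means correlated at 0.258, 0.176 and 0.474, each over 0.1. Between same-numbered DOX + K35 and DOX + K27 libraries they correlated at 0.286 and 0.337. The fits given have no block, and a fit with the number as a block was run beside them for the 3 comparisons without the DOX group, over the 9 numbered libraries. Promoter windows were RefSeq's on GRCm38.p6. The fits were repeated with each library left out, with a replicate block, with the 2 groups alone, without the 20 highest genes, under median-ratio scaling, with no filter and with a pseudocount of 0.1. Python 3.11.15, pandas 2.3.3 and matplotlib 3.10.9 were used.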

Additional observations from a re-analysis of the deposited data

How the results depend on the processing

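Direction was kept by all 28 gene results under all alternatives, with 411 results on the same side of the threshold, 72 that lost it and 17 that gained it. The cause of these shifts was not tested. Under median-ratio scaling the number called was 6 for DOX against Saline (32% of all genes called), 24 for K35 against DOX (78.1%), 26 for K35 against K27 (8.7%) and 0 for K27 against Saline. Leaving the 20 highest genes out of the scaling gave 10 (33.8%), 35 (71.0%) and 39 (7.8%) in the first 3. The medians of the first 2 were then 0.27 and -0.76, against 0.09 and -0.13 for all genes. Fitting only the 2 groups gave 7 for K35 against K27 and 0 for K27 against Saline. K27 against Saline also gave 0 with a pseudocount of 0.1, 0 with the replicate block and 2 with no filter. The block was run for the 3 comparisons among numbered libraries, and its calls are those given for the compounds and the loss of *Mx1*.

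Leaving out 1 library, the number called ran from 0 to 7 for DOX against Saline (4 without B1, where 44.4% of all genes were called), 7 to 13 for K35 against DOX (45.7% to 63.5%), 0 to 26 for K27 against DOX, 4 to 29 for K35 against K27 and 0 to 3 for K27 against Saline, and stayed 0 for K35 against Saline. For K35 against K27 it was 26 without A3 (3.8%), 26 without B4 (8.5%) and 6 without C2, and for K27 against DOX 6 without D3 (0.362%). K27 against Saline gave 3 without A3 and 3 without D3. The medians ran from -0.32 to 0.06, -0.39 to 0.00, 0.78 to 1.27, -1.36 to -0.78, 0.55 to 0.94 and -0.57 to -0.11 in the same order of comparisons. With 3 livers a group and no counts, a difference that did not pass is not shown to be absent.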
